A study of Mus musculus with 11 samples.

Results

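The glucocorticoid pathway was described in RNA libraries labelled as renal CD4+ T cells through 7 genes: *Nr3c1*, which encodes the glucocorticoid receptor, *Hsd11b1*, which encodes the enzyme that regenerates active glucocorticoid inside cells, and 5 genes that the receptor is known to induce (*Tsc22d3*, *Fkbp5*, *Per1*, *Sgk1* and *Zbtb16*). These were 7 of the 35814 gene symbols in the deposited table, found by symbol. They were chosen by their values in earlier results of these same libraries, so that their levels and differences are given as a description without a test. All 11 libraries are labelled as kidney CD4+ T cells, from male mice on a C57BL/6 background, aged 8 to 12 weeks, on day 2 after bilateral ischemia-reperfusion injury (IRI) with 45 min of ischemia. The 3 CD4cre libraries came from control mice, labelled WT, that carry the Cre recombinase under the CD4 promoter. The 5 CD4IKK1 libraries came from mice with the same Cre and a floxed *Chuk* gene, which encodes the kinase IKK1. The 3 CD4NIK libraries came from mice with the same Cre and a floxed *Map3k14* gene, which encodes the kinase NIK. Every group thus carried Cre and every mouse had IRI, so that no comparison here concerns injury itself, and the CD4 promoter is active during thymic development, so that CD8 T cells can be recombined too. The cells were enriched with magnetic beads and sorted by flow cytometry, and their RNA was amplified before sequencing.

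Glucocorticoids such as corticosterone diffuse into cells and bind the receptor, which waits in the cytoplasm in a complex with the chaperone HSP90 and its partners. The bound receptor moves to the nucleus, where it activates genes through glucocorticoid response elements and dampens the genes of many cytokines. In T cells the hormone is known to restrain activation, to promote apoptosis of thymocytes and to set the level of the interleukin-7 receptor, and the enzymes of the 11-beta-hydroxysteroid dehydrogenase family determine how much active hormone a cell sees.

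The libraries held between 15751632 and 25737046 estimated counts each. Levels are given as CPM, counts scaled to a common library size, and 3 counts, taken as the floor of detection, were worth 0.115 to 0.211 CPM. This floor reflects counting error alone, because the RNA was amplified and molecules were not tagged. Transcripts of the targeted genes did not separate the groups as labelled, since *Chuk* had 16.3 to 33.2 CPM in CD4cre and 15.2 to 26.4 CPM in CD4IKK1 libraries, and *Map3k14* had 14.7 to 19.6 CPM in CD4cre and 12.9 to 30.8 CPM in CD4NIK libraries. *Map3k14*, the gene targeted in CD4NIK, was lowest in the libraries labelled CD4IKK1, with 1.86 to 9.23 CPM, under every library of both other groups. Counts summed over a whole gene do not resolve floxed exons, and the groups are therefore named by their labels. The libraries also held very different shares of T cell RNA. The summed level of 15 T cell markers was 1596 to 3073 CPM in CD4cre libraries and 8495 to 12555 CPM in CD4NIK libraries. In libraries labelled CD4IKK1 it was 12.4, 147, 1373, 661 and 590 CPM for replicates 1 to 5. *Cd247* was at 0 counts in replicates 1 and 2 of that group and *Cd3g* in replicate 2, and *Trac*, the constant region of the T cell receptor alpha chain, had 1 count in replicate 1. The summed level of 10 neuronal transcripts went the other way, with 3062 to 3830 CPM in CD4cre, 3985 to 4576 CPM in CD4IKK1 and 1031 to 2157 CPM in CD4NIK libraries, and none of the 10 was at 0 in any library. Markers of macrophages and dendritic cells summed to 453 to 1797, 103 to 252 and 590 to 893 CPM in the same order of groups, those of B cells to 67.4 to 140, 4.10 to 25.6 and 196 to 662 CPM, and those of oligodendrocytes and astrocytes to 681 to 834, 625 to 892 and 459 to 751 CPM. Erythroid transcripts summed to 2081 to 2678, 533 to 1610 and 1190 to 8173 CPM and those of kidney tubule to 18.7 to 80.0, 4.99 to 11.4 and 14.5 to 111 CPM, while markers of neutrophils and of fibroblasts and endothelium reached at most 5.91 and 54.9 CPM. In bulk RNA, fewer cells of a type and less RNA per cell cannot be told apart. The levels below are those of all RNA in a library, and how much of each gene's level came from cells other than CD4+ T cells was not tested.

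*Nr3c1*, the receptor itself, was lowest in libraries labelled CD4IKK1 and highest in CD4NIK libraries. It had 181, 131 and 127 CPM in the CD4cre libraries, 71.4, 70.5, 77.4, 75.6 and 81.2 CPM in the libraries labelled CD4IKK1, and 177, 315 and 313 CPM in the CD4NIK libraries. Every CD4IKK1 library was thus under every library of both other groups, whereas CD4NIK replicate 1 was just under CD4cre replicate 1. The 5 CD4IKK1 libraries lay close together, with 75.2 ± 4.41 CPM (SD, n = 5), against 146 ± 29.9 CPM (SD, n = 3) in CD4cre and 268 ± 79.0 CPM (SD, n = 3) in CD4NIK libraries. The fitted log2 fold change was −0.96 (standard error 0.14) for CD4IKK1 against CD4cre, 0.86 (0.26) for CD4NIK against CD4cre and −1.83 (0.19) for CD4IKK1 against CD4NIK. Both comparisons with CD4cre share the 3 control libraries. The level of *Nr3c1* in CD4IKK1 replicate 1, with 12.4 CPM of T cell markers, was 71.4 CPM, against 77.4 CPM in replicate 3, with 1373 CPM of T cell markers, and without replicates 1 and 2 the log2 fold changes of CD4IKK1 were −0.91 against CD4cre and −1.77 against CD4NIK. With the T cell marker score as a covariate, the difference between CD4NIK and CD4cre changed sign, to −0.94. *Nr3c1* is on the minus strand of GRCm39 at chr18:39543598-39652474. Its gene body, like those of the other 6 genes, overlaps other annotated genes, here 2 long noncoding RNAs, and whether strand was used in counting is not given in the sources used here.

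The mineralocorticoid receptor gene *Nr3c2*, whose product binds glucocorticoids as well, was lowest in CD4NIK libraries. It had 21.0, 28.0 and 28.0 CPM in CD4cre libraries, between 20.9 and 25.4 CPM (median 22.1) in libraries labelled CD4IKK1, and 14.1, 10.2 and 5.71 CPM in CD4NIK libraries. The CD4NIK libraries were under all others, and *Nr3c2* fell in CD4NIK against CD4cre (log2 fold change −1.37, standard error 0.39, edgeR FDR 0.0395), whereas CD4IKK1 and CD4cre overlapped (−0.18, standard error 0.21, FDR 0.748). Among the chaperones, *Hsp90ab1*, which encodes the constitutive HSP90, differed little, with 643 to 680 CPM in CD4cre, 508 to 704 CPM in CD4IKK1 and 493 to 1010 CPM in CD4NIK libraries. The immunophilin gene *Fkbp4*, whose product links the receptor complex to dynein, had 9.31, 5.64 and 7.71 CPM in CD4cre, 0.448, 0, 4.88, 4.62 and 0.629 CPM in CD4IKK1 and 16.1, 49.1 and 48.6 CPM in CD4NIK libraries. The groups did not overlap, and *Fkbp4* rose in CD4NIK against CD4cre (log2 fold change 2.30, FDR 0.016) and was lower in CD4IKK1 than in CD4NIK libraries (−4.16, FDR 0.00848). *Ptges3*, which encodes the HSP90 cochaperone p23, was at 0 counts in all 5 libraries labelled CD4IKK1, had 0, 20 and 3 counts in CD4cre libraries and had 105, 54 and 128 counts in CD4NIK libraries. The mean of the CD4NIK libraries, 5.84 CPM, was 30.4-fold above the floor of 3 counts in the shallowest CD4IKK1 library. CD4NIK replicate 2 was the lowest of its group, with 2.65 CPM. As the floor reflects counting error alone, 30.4-fold is no strict lower limit of the difference. *Dnajb1*, an HSP40 cochaperone, had 18.2 to 206 CPM in CD4cre, 0 to 29.0 CPM in CD4IKK1 and 166 to 692 CPM in CD4NIK libraries, and *Ppp5c*, a phosphatase of the complex, rose in CD4NIK against CD4cre from 0.308 to 1.40 CPM to 5.91 to 15.5 CPM (log2 fold change 3.76, FDR 0.0189).

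*Hsd11b1* was the gene of the 7 with the widest separation. Its product, 11-beta-hydroxysteroid dehydrogenase type 1, converts inactive 11-dehydrocorticosterone into corticosterone in the endoplasmic reticulum. The stretch around its start site is shown because this gene carries the largest difference among the 7. It runs from 250 bases before to 50 after the start in the RefSeq promoter table, on the minus strand of GRCm38.p6 at chr1:193242311-193242610, with the single CCAAT box, which begins at position −72 from the start site, in capitals.
Hsd11b1: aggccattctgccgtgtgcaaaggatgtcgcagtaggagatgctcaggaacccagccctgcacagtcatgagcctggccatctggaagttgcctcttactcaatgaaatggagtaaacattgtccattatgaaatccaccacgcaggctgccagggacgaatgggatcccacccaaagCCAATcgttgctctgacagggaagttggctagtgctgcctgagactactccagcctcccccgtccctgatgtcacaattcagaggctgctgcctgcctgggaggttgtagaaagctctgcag
A CCAAT box (letters CCAAT on either strand) was present in 37.4% of the 32851 windows of that table, and the window of *Hsd11b1* held neither a glucocorticoid response element nor 1 arm of it, as defined below. The gene itself is annotated on the minus strand of GRCm39 at chr1:192903918-192946489, where it overlaps *Lamb3* and a long noncoding RNA on the other strand and an unclassified transcript on its own. Coordinates of these builds are not interchangeable.

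The level of *Hsd11b1* was 27.7, 21.5 and 11.9 CPM in the CD4cre libraries. It was 10.1, 7.86, 16.5, 11.0 and 8.59 CPM in the libraries labelled CD4IKK1 and 229, 225 and 264 CPM in the CD4NIK libraries. The CD4NIK libraries thus stood far above all others, with an SD of 8.89% of their mean, whereas CD4IKK1 replicate 3 lay above CD4cre replicate 3. The fitted difference was 11.6-fold between CD4NIK and CD4cre (log2 fold change 3.54, standard error 0.32) and 22.1-fold between CD4IKK1 and CD4NIK (−4.46, standard error 0.29). Between CD4IKK1 and CD4cre it was −0.92 (standard error 0.36), and −0.76 without CD4IKK1 replicates 1 and 2. The ratio of *Hsd11b1* to the T cell markers differed between CD4NIK and CD4cre libraries as well, without overlap. Per 1000 CPM of T cell markers, *Hsd11b1* had 9.02, 8.63 and 7.46 CPM in CD4cre libraries and 27.0, 19.8 and 21.0 CPM in CD4NIK libraries. In libraries labelled CD4IKK1 this ratio was 813, 53.4, 12.02, 16.7 and 14.6, where that of replicates 1 and 2 rests on 12.4 and 147 CPM of markers. For the other 6 genes the ratio was lower in CD4NIK than in CD4cre libraries, without overlap for *Nr3c1* (20.8 to 27.6 against 52.7 to 79.3), *Tsc22d3* (7.63 to 13.3 against 23.6 to 32.1), *Per1* (0.361 to 3.72 against 20.5 to 36.0) and *Zbtb16* (0.854 to 2.32 against 9.85 to 10.2). For *Fkbp5* and *Sgk1* the groups overlapped (0.496 to 1.04 against 0.993 to 2.84, and 0.427 to 1.26 against 1.19 to 4.21). The marker sum itself was higher in CD4NIK than in CD4cre libraries, so that a gene that rises less than the markers falls in this ratio. The share of all genes was not computed for the ratio, and nothing is read from how many of the 7 genes were higher or lower. With the T cell marker score as a covariate, the log2 fold change was 2.31 for CD4NIK against CD4cre and −3.98 for CD4IKK1 against CD4NIK. Markers of B cells and of other cell types also differed between CD4NIK and CD4cre libraries, as given above, and their part in this difference was not tested.

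**Figure D1:**
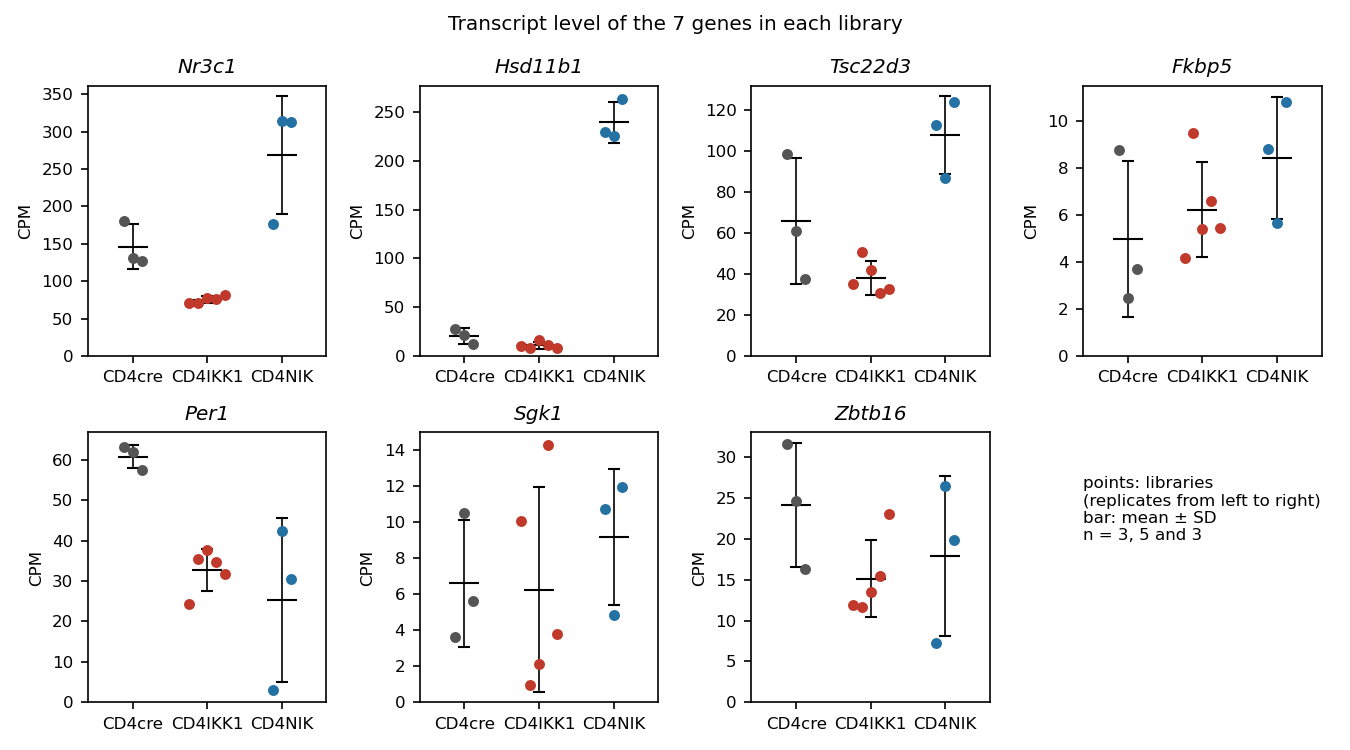
Level of each of the 7 genes in CPM (linear axes, starting at 0) in every library of the groups labelled CD4cre (n = 3), CD4IKK1 (n = 5) and CD4NIK (n = 3); points are libraries, bars are the mean ± SD. The 3 CD4NIK libraries sit at 225 to 264 CPM for *Hsd11b1*, where no other library exceeds 27.7 CPM, and *Per1* in CD4NIK replicate 1 is at 3.07 CPM.

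Of the other 10 genes of hormone metabolism and transport, 6 passed the expression filter. *H6pd*, which supplies the NADPH for the reductase activity of the *Hsd11b1* product, had 9.08, 9.28 and 0 CPM in CD4cre, 0 to 1.94 CPM in CD4IKK1 and 10.7, 11.1 and 16.7 CPM in CD4NIK libraries. It was lower in CD4IKK1 than in CD4NIK libraries (log2 fold change −3.72, FDR 0.0317) and missed the threshold in CD4NIK against CD4cre (1.05, FDR 0.548). *Hsd11b2*, the enzyme of the inactivating direction, had at most 18 counts in a library and was not tested. *Srd5a1*, a steroid 5-alpha-reductase, had 16.4 to 21.2 CPM in CD4cre, 12.6 to 31.5 CPM in CD4IKK1 and 3.95 to 12.5 CPM in CD4NIK libraries, and was higher in CD4IKK1 than in CD4NIK libraries (1.49, FDR 0.0142). The genes *Abcb1a* and *Abcb1b* encode P-glycoproteins, which pump glucocorticoids out of cells. *Abcb1a* had 16.6, 8.99 and 8.41 CPM in CD4cre, 0.105 to 4.31 CPM in CD4IKK1 and 24.1, 33.7 and 39.1 CPM in CD4NIK libraries, which did not overlap. Both transporters rose in CD4NIK against CD4cre, *Abcb1a* with a log2 fold change of 1.49 (FDR 0.0266) and *Abcb1b* with 1.77 (FDR 0.0362). Neither was called with the T cell marker score as a covariate, where no gene of the pathway lists was. As near paralogs they share sequence, so that the division of reads between them is uncertain.

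The 5 induced genes did not move as a block, and 2 promoter windows are shown because they differ in the element that the receptor binds. A glucocorticoid response element was searched as GNACANNNTGTNC and a single arm of it as AGAACA, both on either strand, and an arm can lie within a full element. The window of *Sgk1* below (GRCm38.p6, plus strand, chr10:21993640-21993939) has a full element in capitals, beginning at position −188 from the start site, and that of *Tsc22d3* (minus strand, chrX:140600473-140600772) has a single arm in capitals, beginning at position −185.
Sgk1: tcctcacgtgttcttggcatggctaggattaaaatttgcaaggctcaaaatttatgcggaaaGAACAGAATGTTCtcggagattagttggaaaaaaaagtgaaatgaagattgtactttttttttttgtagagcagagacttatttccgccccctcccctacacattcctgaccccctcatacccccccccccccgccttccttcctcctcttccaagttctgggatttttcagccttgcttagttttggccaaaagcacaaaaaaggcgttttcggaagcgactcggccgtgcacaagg
Tsc22d3: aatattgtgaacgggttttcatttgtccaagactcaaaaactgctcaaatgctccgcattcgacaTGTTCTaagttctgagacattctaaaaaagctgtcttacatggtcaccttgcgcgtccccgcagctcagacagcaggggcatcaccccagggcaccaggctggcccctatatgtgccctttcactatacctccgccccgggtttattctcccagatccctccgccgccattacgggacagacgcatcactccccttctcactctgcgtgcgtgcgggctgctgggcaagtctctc
RefSeq lists several start sites for both genes, and 13 windows matched 5 of the 7 genes. The full element was in 1 of these 13 windows and in 0.475% of all 32851 windows, and the single arm was in 4 of 13 and in 19.0% of all. Among the other genes of the pathway lists, 5 of 71 windows (7.04%) held the full element, in *Fam107a*, *Map3k6*, *Mt1* and *Txnip*, and 10 of 71 (14.1%) held the single arm. A match is a stretch of letters in a window of 300 bases and no measurement of binding.

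*Tsc22d3*, which encodes the leucine zipper protein GILZ, a mediator of glucocorticoid action in T cells, had 98.6, 61.1 and 37.7 CPM in CD4cre libraries. It had 35.1, 50.6, 41.9, 30.5 and 32.5 CPM in libraries labelled CD4IKK1 and 113, 87.0 and 124 CPM in CD4NIK libraries. CD4cre overlapped both other groups, while CD4IKK1 and CD4NIK were apart. The log2 fold changes were −0.79 (standard error 0.28) for CD4IKK1 against CD4cre, 0.70 (0.34) for CD4NIK against CD4cre and −1.49 (0.27) for CD4IKK1 against CD4NIK. The order of group means was that of *Nr3c1* and of the T cell markers. Within CD4cre the order of libraries was that of the markers too, which summed to 3073, 2496 and 1596 CPM. CD4NIK replicate 3, with 12555 CPM of markers, was highest of its group in both. Among CD4IKK1 libraries *Tsc22d3* was highest in replicate 2, with 147 CPM of markers. CD4NIK replicate 2, with 11395 CPM of markers, had less *Tsc22d3* than replicate 1, with 8495 CPM. With the T cell marker score as a covariate, the log2 fold change for CD4NIK against CD4cre was −0.49. The part of T cell RNA in these differences was not tested.

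*Per1*, a component of the circadian clock that glucocorticoids induce directly, was highest in the control libraries. It had 63.0, 61.8 and 57.5 CPM in CD4cre, 24.3, 35.4, 37.7, 34.8 and 31.7 CPM in CD4IKK1, and 3.07, 42.4 and 30.4 CPM in CD4NIK libraries. Every CD4cre library was above every library of the other groups, and CD4NIK replicate 1 stood apart from its group at the lowest value of all. The log2 fold change was −0.89 (standard error 0.18) for CD4IKK1 against CD4cre and −1.29 (standard error 0.70) for CD4NIK against CD4cre, and the latter was −0.74 without CD4NIK replicate 1. CD4IKK1 and CD4NIK overlapped (0.37, standard error 0.55, and −0.15 without CD4NIK replicate 1). *Per1* thus differed in the same direction in both comparisons with CD4cre, which share the control libraries, whereas *Nr3c1* and *Tsc22d3* differed in opposite directions.

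*Zbtb16*, which encodes the transcription factor PLZF of innate-like T cells, had 31.5, 24.6 and 16.3 CPM in CD4cre libraries, 11.9, 11.7, 13.5, 15.5 and 23.0 CPM in CD4IKK1 and 7.25, 26.4 and 19.9 CPM in CD4NIK libraries. All 3 groups overlapped, with log2 fold changes of −0.67 (standard error 0.32) for CD4IKK1 and −0.46 (0.47) for CD4NIK against CD4cre. *Fkbp5*, which encodes the immunophilin FKBP51 that lowers the hormone affinity of the receptor, was low throughout. It had 8.74, 2.48 and 3.70 CPM in CD4cre, 4.16, 9.48, 5.39, 6.60 and 5.44 CPM in CD4IKK1 and 8.82, 5.65 and 10.8 CPM in CD4NIK libraries. *Sgk1*, a kinase that controls ion transport, had 3.66, 10.5 and 5.66 CPM in CD4cre, 10.1, 0.943, 2.16, 14.3 and 3.82 CPM in CD4IKK1 and 10.7, 4.86 and 11.98 CPM in CD4NIK libraries. The groups overlapped for both genes, whose log2 fold changes lay between −0.54 and 0.74 with standard errors of 0.48 to 0.79.

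**Figure D2:**
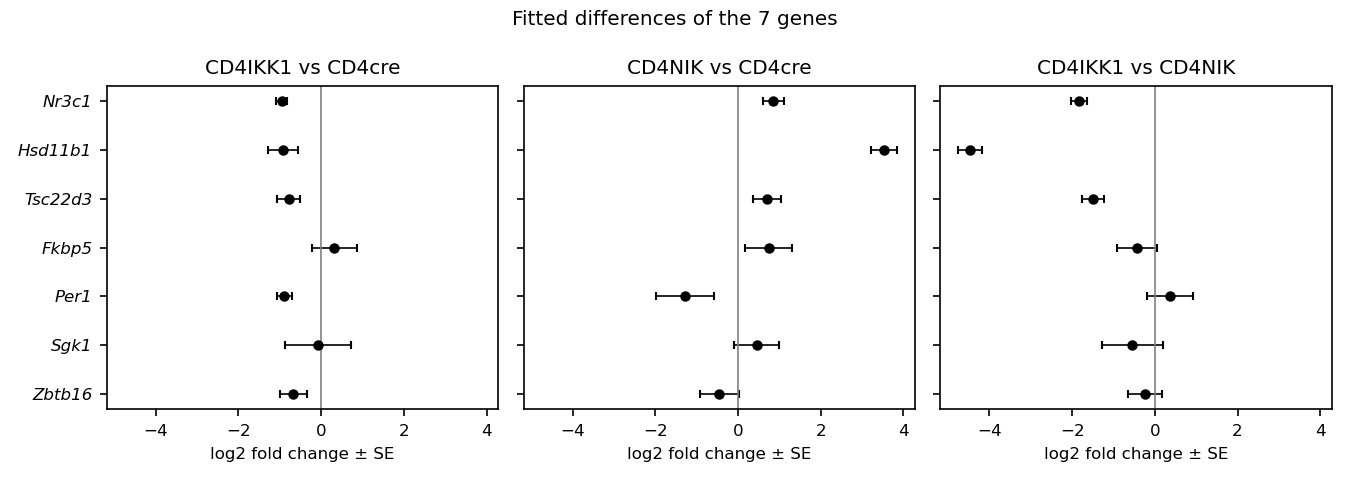
Log2 fold change (points) with its standard error (bars) from edgeR for each of the 7 genes in the comparisons CD4IKK1 against CD4cre, CD4NIK against CD4cre and CD4IKK1 against CD4NIK; positive values are higher in the group named first. *Hsd11b1* lies at 3.54 in the middle panel and at −4.46 on the right, while *Fkbp5*, *Sgk1* and *Zbtb16* lie between −0.67 and 0.74 in all panels.

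A gene was called where its FDR from edgeR was under 0.05 and its difference more than 2-fold. All 7 genes passed the expression filter in each comparison. Between CD4IKK1 and CD4cre, 0 of the 7 were called, as were 0% of the 15653 genes tested, and 2 of the 7 were lower without overlap (*Nr3c1* and *Per1*), as were 8.44% of all genes. None was higher without overlap, against 5.99% of all genes. Between CD4NIK and CD4cre, 1 of the 7 was called higher (*Hsd11b1*), against 10.4% of 15209 genes, and none lower, against 6.99%. *Hsd11b1* was higher and *Per1* lower without overlap, against 23% and 22.1% of all genes. Between CD4IKK1 and CD4NIK, 3 of the 7 were called lower (*Nr3c1*, *Hsd11b1* and *Tsc22d3*), against 18.5% of 16546 genes, and none higher, against 14.8%. The same 3 genes were lower without overlap, against 24.6% of all genes, and none was higher without overlap, against 20.5%. With the T cell marker score as a covariate, the calls of *Hsd11b1* in CD4NIK against CD4cre and of *Tsc22d3* in CD4IKK1 against CD4NIK were lost. Other alternatives added calls. In CD4NIK against CD4cre these were *Nr3c1* without CD4NIK replicate 1 (log2 fold change 1.11, FDR 0.00622) and *Tsc22d3* without CD4cre replicate 1 (1.11, FDR 0.0468). In CD4IKK1 against CD4cre *Nr3c1* was called with a filter of 10 counts in every library (−1.002, FDR 0.00722). As these contrasts chose the 7 genes, nothing is read from these counts.

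**Figure D3:**
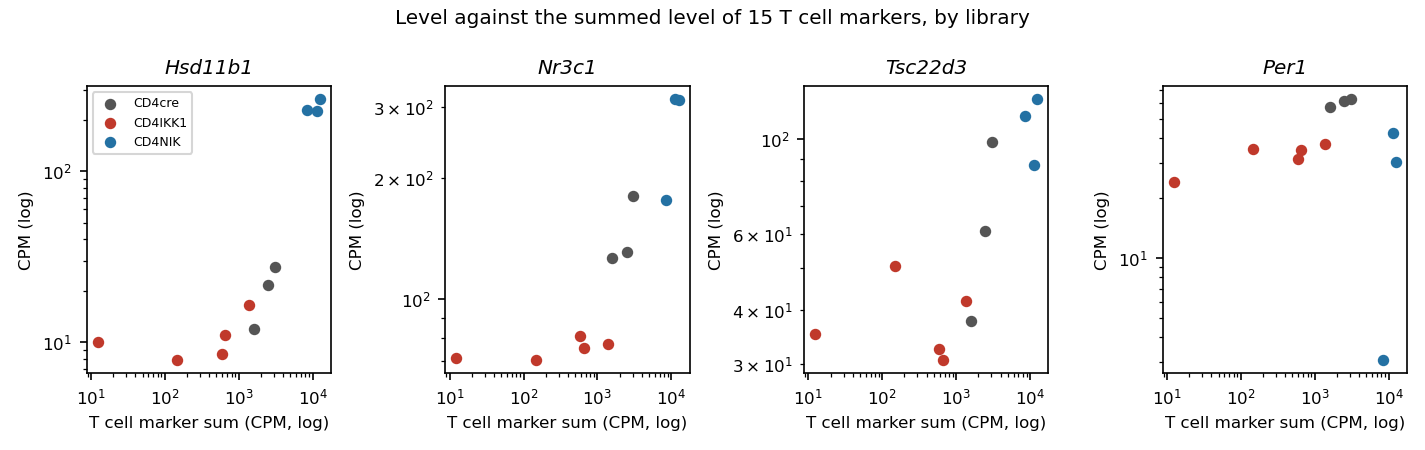
Level of *Hsd11b1*, *Nr3c1*, *Tsc22d3* and *Per1* in CPM against the summed level of 15 T cell markers in CPM, both on log axes, with 1 point per library coloured by group. The CD4IKK1 libraries stay between 70.5 and 81.2 CPM of *Nr3c1* while their marker sum runs from 12.4 to 1373 CPM, and the CD4NIK libraries lie at the right, above all others for *Hsd11b1* but not for *Per1*.

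Across the 11 libraries, the genes whose log2 CPM was most like that of *Hsd11b1* were *Capzb* (Pearson's r = 0.994), an actin-capping protein gene, *Hdac1* (0.992), a histone deacetylase gene, and *Hopx* (0.991). *Nr3c1* was most like *Trgv2* (0.986) and *Trbv5* (0.983), both variable segments of T cell receptor chains, and *Rpl15* (0.985), a ribosomal protein gene. *Tsc22d3* was most like *Sin3b* (0.971), *Pdcd6ip* (0.969) and *Tiparp* (0.964). For the remaining 4 genes the closest pattern reached 0.900 for *Per1* (*Ndnf*), 0.898 for *Zbtb16* (*Senp6*), 0.889 for *Sgk1* (*Grpel2*) and 0.874 for *Fkbp5* (*Coq6*). These values describe 11 points that share their libraries, the same group structure and the gradient of T cell RNA, and they were the highest of 16545 genes in each case.

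The rest of the pathway was covered by 83 genes in 5 lists, which leave out the 7 genes and were written with earlier results of these libraries known. Between CD4IKK1 and CD4cre, 69 of the 83 were tested and 0 were called by edgeR. At an unadjusted p under 0.05, edgeR had 20 of the 69 (29.0%) lower, against 8.91% of all genes, and 0 higher, against 7.65%. DESeq2 called 10 lower, against 4.02% of the 12462 genes to which it gave an adjusted p, and 0 higher, against 0.369%. The median log2 fold change of the 69 genes was −0.67, where that of all genes tested was 0.02. Leaving out CD4cre replicate 3 or CD4IKK1 replicate 1, 3 or 4 gave 1 call, and leaving out CD4IKK1 replicates 1 and 2 together, chosen after seeing the data, gave 2. T cell markers were lower and neuronal transcripts higher in CD4IKK1 libraries, as given above, and their part in these values was not tested.

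Between CD4NIK and CD4cre, 71 of the 83 were tested, of which 12 rose and 3 fell, 16.9% and 4.23% against the 10.4% and 6.99% of all genes. Their median log2 fold change was 0.48, against −0.02 for all genes. The count of 15 calls was 8, 4, 4 and 3 without CD4cre replicate 2, CD4cre replicate 3, CD4NIK replicate 2 and CD4NIK replicate 3, respectively, and it was 0 with the T cell marker score as a covariate. With that covariate the differences of *Fkbp4*, *Nr3c2*, *Anxa1* and *Klf9* changed sign, to −0.47, 0.50, −2.26 and 0.30. Of the 9 called genes named below or above for this comparison by size, *Il2* alone kept its call whichever library was left out, and the other 8 lost it without CD4NIK replicate 2 and also without replicate 3. Between CD4IKK1 and CD4NIK, 73 were tested, of which 6 rose and 29 fell, 8.22% and 39.7% against 14.8% and 18.5% of all genes, with a median of −1.10 against 0.06. This count of 35 calls stayed between 25 and 38 without any 1 library, and was 30 without CD4IKK1 replicates 1 and 2 and 2 with the T cell marker score as a covariate, under which *Mt2*, *Dnajb1* and *Ifng* changed sign, to −0.0436, 0.46 and 1.22.

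**Figure D4:**
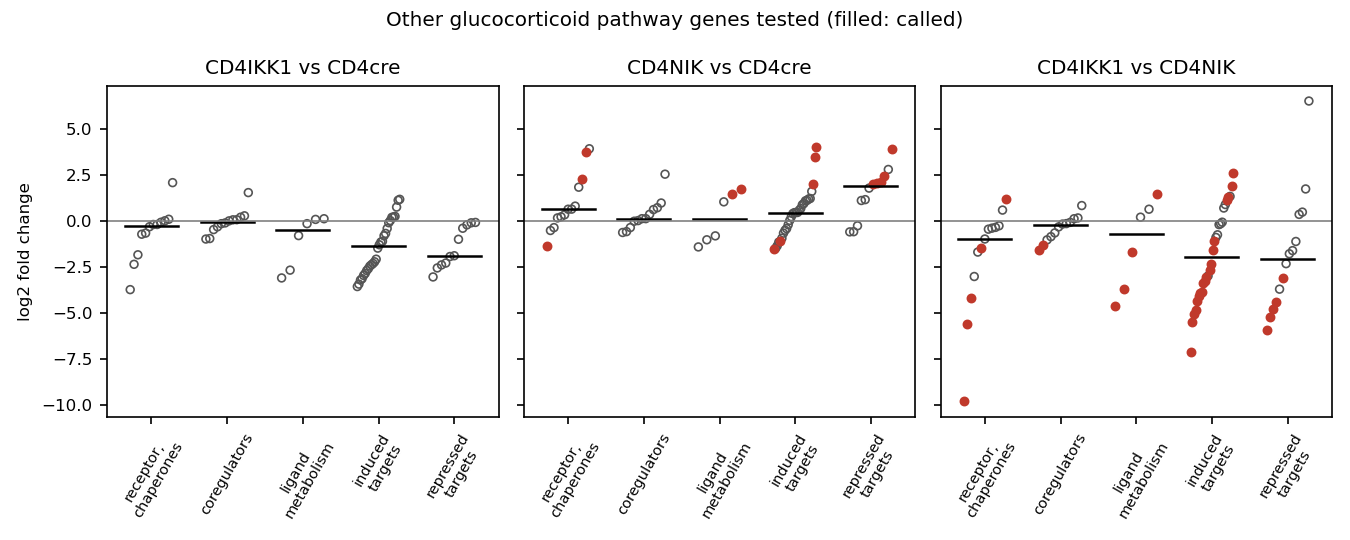
Log2 fold change of each of the other pathway genes tested (69, 71 and 73 genes), by list, in the 3 comparisons; filled points were called, open points were not, and horizontal lines are list medians. No point is filled on the left, 15 are filled in the middle and 35 on the right. The lowest point, *Ptges3* on the right, has 0 counts in all CD4IKK1 libraries and the highest there, *Nos2*, has 0 counts in all CD4NIK libraries, so that their fitted values are no measure of size.

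Of 33 further genes that glucocorticoids are known to induce, 28 were tested. Between CD4NIK and CD4cre, 3 rose (10.7%) and 2 fell (7.14%), where 10.4% and 6.99% of all genes did, with a median log2 fold change of 0.47. At an unadjusted p under 0.05, edgeR had 8 of the 28 higher and 4 lower, where 19% and 17.8% of all genes were. DESeq2 called 6 higher, where it called 12.6% of all genes, and 2 lower. Between CD4IKK1 and CD4NIK, 4 rose (14.3%) and 15 fell (53.6%), against 14.8% and 18.5% of all genes, with a median of −1.95. Between CD4IKK1 and CD4cre edgeR called 0 of the 28, with 13 lower (46.4%, against 8.91% of all genes) and 0 higher (against 7.65%) at an unadjusted p under 0.05. DESeq2 called 8 lower, where it called 4.02% of all genes, and 0 higher, where it called 0.369%, and the median was −1.38. *Dusp1*, a phosphatase of MAP kinases that is also an immediate early gene, had 2110, 889 and 390 CPM in CD4cre libraries. It had 35.1, 50.9, 76.4, 157 and 204 CPM in libraries labelled CD4IKK1 and 2355, 3491 and 4643 CPM in CD4NIK libraries, so that no groups overlapped. *Dusp1* was lower in CD4IKK1 than in CD4NIK libraries (log2 fold change −5.06, standard error 0.71, FDR 0.000498), and had −3.43 against CD4cre (FDR 0.126 from edgeR and 0.000616 from DESeq2).

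*Klf9*, a transcription factor gene with a strong direct response to glucocorticoids, had the opposite order. It had 320, 283 and 335 CPM in CD4cre, 341, 431, 336, 350 and 345 CPM in CD4IKK1 and 212, 117 and 112 CPM in CD4NIK libraries. The CD4IKK1 libraries were above all CD4cre libraries by a small margin (log2 fold change 0.21, FDR 0.366), and *Klf9* fell in CD4NIK against CD4cre (−1.11, standard error 0.27, FDR 0.0276) and was higher in CD4IKK1 than in CD4NIK libraries (1.31, FDR 0.000367). *Map3k6*, *Mt2* and *Hif3a* were likewise higher in CD4IKK1 than in CD4NIK libraries, with log2 fold changes of 1.89, 1.14 and 2.63 (FDR 0.00382, 0.0226 and 0.049). The call of *Hif3a* was lost under 13 of 19 alternatives, and its log2 fold change ran from 2.15 to 3.88 without any 1 library. The call of *Mt2* was lost in 5 of 20, which were the T cell marker score as a covariate (where the value was −0.04), the omission of CD4IKK1 replicates 1 and 2 together (0.72, FDR 0.103), and that of CD4IKK1 replicate 1, CD4NIK replicate 1 or CD4NIK replicate 3. The call of *Srd5a1* was lost in 4 of 20, which were the same covariate (0.63, FDR 0.634), the omission of CD4IKK1 replicates 1 and 2 together (1.13, FDR 0.0726), and that of CD4NIK replicate 2 or 3. *Cdkn1c*, a cell cycle inhibitor gene, fell in CD4NIK against CD4cre from 14.8 to 25.9 CPM to 6.41 to 8.20 CPM (−1.53, FDR 0.0234).

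*Anxa1*, which encodes the anti-inflammatory annexin A1, had 8.66, 15.6 and 3.50 CPM in CD4cre, 0 to 2.50 CPM (median 0.524) in CD4IKK1 and 25.2, 115 and 179 CPM in CD4NIK libraries. It rose in CD4NIK against CD4cre (log2 fold change 3.50, standard error 0.75, FDR 0.0198). *Pck1*, a gluconeogenic enzyme gene, rose from 0.243 to 2.39 CPM in CD4cre to 13.5 to 22.0 CPM in CD4NIK libraries (4.03, standard error 0.83, FDR 0.0173). *Il7r*, *Cxcr4* and *Ddit4*, which encode the interleukin-7 receptor chain, a chemokine receptor and an inhibitor of mTORC1, did not pass the threshold in edgeR in CD4NIK against CD4cre (1.21, 1.11 and 0.69). DESeq2 called *Il7r* there (1.23, FDR 0.0174) but not *Cxcr4* or *Ddit4*. In CD4IKK1 against CD4NIK libraries *Il7r*, *Cxcr4* and *Ddit4* were lower, with −3.90, −4.06 and −3.83 (FDR 0.0184, 0.0404 and 0.000558). In CD4IKK1 replicate 1, with its 12.4 CPM of T cell markers, *Il7r*, *Cxcr4* and *Ddit4* had 15, 0 and 1 counts.

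Genes that glucocorticoids are known to repress, mostly of cytokines and chemokines, numbered 15. Between CD4NIK and CD4cre 5 of the 12 tested rose (41.7%, against 10.4% of all genes) and none fell (against 6.99%), with a median of 1.91. Between CD4IKK1 and CD4NIK none of the 14 tested rose (against 14.8%) and 5 fell (35.7%, against 18.5%), with a median of −2.05. Between CD4IKK1 and CD4cre all 11 tested had a log2 fold change below 0, as did 48.7% of all genes, with a median of −1.88. Of these edgeR called 0, with 2 lower (18.2%, against 8.91% of all genes) and 0 higher (against 7.65%) at an unadjusted p under 0.05, and DESeq2 called 1 lower, where it called 4.02% of all genes. *Ifng*, the gene of interferon gamma, had 364, 135 and 110 CPM in CD4cre, 0, 1.99, 32.4, 35.5 and 53.1 CPM in CD4IKK1 and 887, 768 and 1067 CPM in CD4NIK libraries. *Il2*, the gene of interleukin-2, had 0.751 to 2.53 CPM in CD4cre, 0 to 1.64 CPM in CD4IKK1 and 11.4 to 35.9 CPM in CD4NIK libraries, with a log2 fold change of 3.96 (FDR 0.00771) for CD4NIK against CD4cre. *Cxcl10*, a chemokine gene, was at 0 counts in 4 of the 5 CD4IKK1 libraries and rose in CD4NIK against CD4cre (2.46, FDR 0.0208). *Pomc*, the precursor gene of adrenocorticotropic hormone, stayed between 2.90 and 8.65 CPM in all libraries.

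The receptor and chaperone list (13 genes) had 2 genes that rose (15.4%) and 1 that fell (7.69%) in CD4NIK against CD4cre, where all genes had 10.4% and 6.99%. At an unadjusted p under 0.05 from edgeR, 6 of the 13 were higher and 2 lower, where 19% and 17.8% of all genes were. DESeq2 called 3 higher, where it called 12.6% of all genes, and 1 lower. In CD4IKK1 against CD4NIK 1 of the 13 rose (7.69%) and 4 fell (30.8%), where all genes had 14.8% and 18.5%. The list of metabolism and transport (10 genes, 6 tested) had 2 that rose (33.3%) in CD4NIK against CD4cre, and 1 that rose (16.7%) and 3 that fell (50%) in CD4IKK1 against CD4NIK, beside the same shares of all genes. The 12 coregulators, which include the histone acetyltransferase gene *Ep300* and the coactivators of the receptor, had the fewest calls. In CD4NIK against CD4cre edgeR called 0 (against 10.4% higher and 6.99% lower of all genes). In CD4IKK1 against CD4NIK 2 fell (16.7%, near the 18.5% of all genes) and 0 rose (against 14.8%). In CD4NIK against CD4cre 1 coregulator was lower and 2 were higher at an unadjusted p under 0.05, where 17.8% and 19% of all genes were, and DESeq2 called 1 higher, where it called 12.6%. Among the 2 that fell was *Ncoa3*, with 43.6 to 52.5 CPM in CD4cre, 12.6 to 36.4 CPM in CD4IKK1 and 45.2 to 97.3 CPM in CD4NIK libraries (−1.60, FDR 0.00144). *Ncoa1* went the other way, with 108 to 149, 133 to 190 and 76.9 to 104 CPM (0.85), and was under the 2-fold threshold.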

How the data were processed

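Bulk RNA-seq libraries of kidney CD4+ T cells (3 CD4cre, 5 CD4IKK1 and 3 CD4NIK) were grouped by their labels, 1 library per biological replicate. The authors trimmed the reads, ran kallisto and deposited its estimated counts summed by gene symbol, not normalized. The paper names the assembly GRCm39, whereas the submitters' processing notes give mm10; the annotation release and version of kallisto are not given in the sources used here. Symbols, not coordinates, joined the files. The estimated counts were rounded, filtered with edgeR's filterByExpr and normalized by TMM, and groups were compared in edgeR 4.0.16 under R 4.3.3 by the robust quasi-likelihood test, adjusted by Benjamini-Hochberg over all genes tested (FDR). Each comparison with CD4cre used its own libraries, and CD4IKK1 against CD4NIK used all 11. Calls needed an FDR below 0.05 and over 2-fold change, and standard errors were taken from the F statistic. CPM used TMM factors over all 11 libraries. The T cell marker score is the mean log2 CPM of the 15 markers (prior count 2). None of the 55 pairs of libraries held identical values. The fits were tested on simulated counts.

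The 7 genes and all lists were chosen with earlier results of these data known. Of the other pathway genes, those named are the called ones (at most 6 per direction and comparison, by size), the highest and the lowest of each list, and 10 textbook members; for likeness, the 3 genes with the highest Pearson's r were taken. Other genes of a list are named only where they hold a motif. Promoter windows are from RefSeq (GRCm38.p6) and gene positions from GENCODE M39 (GRCm39). Alternatives were DESeq2 (1.42.0), RLE and upper-quartile factors, an expression filter of 1 count in any library or of 10 in each, no fold threshold, other libraries in the fit, the T cell marker score as a covariate, the replicate number as a block and leaving out each library.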

Additional observations from a re-analysis of the deposited data

Results flagged for a closer look

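In 5 of the 40 groups of named genes examined, 1 of the 5 libraries labelled CD4IKK1 lay far from the others. The criterion flags about 1 in 20 groups of independent, normally distributed values. These groups share their libraries and several lie near 0 CPM, so that the count is not set against that rate. Replicate 3, which had the highest T cell marker sum of its group (1373 CPM), stood above the other 4 for *Abcb1a* (4.31 CPM, next 1.30 CPM), *Anxa1* (2.50 CPM, next 0.704 CPM), *Cxcl10* (3.52 CPM, others 0 CPM) and *Il2* (1.64 CPM, next 0.192 CPM). Replicate 2 stood above the others for *Klf9* (431 CPM, next 350 CPM). None of the 7 genes chosen for this description met the criterion in this group.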

How the results depend on the processing

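Of 714 differences of single genes recomputed under the alternatives, 20 changed sign, 11 of them with the T cell marker score as a covariate, and in 75 a called gene outside the 7 kept its direction but lost the call. The other 9 sign changes concerned differences that were not called, 6 of them *Sgk1* between CD4IKK1 and CD4cre (−0.08, up to 0.43 without CD4cre replicate 2) and 1 each *Fkbp5*, *Per1* and *Zbtb16*. With the score, *Nr3c1*, *Tsc22d3* and *Fkbp5* changed to −0.94, −0.49 and −0.57 for CD4NIK against CD4cre and *Zbtb16* to 0.47 for CD4IKK1 against CD4NIK. Of called genes, 7 reversed, all with the score: for CD4NIK against CD4cre, *Anxa1* to −2.26, *Fkbp4* to −0.47, *Nr3c2* to 0.50 and *Klf9* to 0.30; for CD4IKK1 against CD4NIK, *Mt2* to −0.0436, *Dnajb1* to 0.46 and *Ifng* to 1.22. The score follows the groups, so that this fit takes up part of any difference between them.

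The count of pathway genes called between CD4IKK1 and CD4cre, 0 in edgeR's fit, was 10 with DESeq2, 1 with RLE factors, 1 with upper-quartile factors, 1 with the filter of 1 count in any library, 2 with 10 counts in every library, 3 with all 11 libraries in the fit, 2 without CD4IKK1 replicates 1 and 2 (chosen after seeing the data) and 0 to 1 without any 1 library. For CD4NIK against CD4cre, 15 became 8 with all 11 libraries, 0 with the T cell marker score and 3 to 19 without any 1 library. For CD4IKK1 against CD4NIK, 35 became 23 with 10 counts in every library, 2 with the score and 25 to 38 without any 1 library. The cause of these changes was not tested.

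With the replicate block, the counts were 0, 7 and 33. Deviations of same-numbered libraries from their group means had correlations from −0.0889 to 0.0766. The labels do not say whether the numbers pair mice, and with so few libraries these values cannot decide it. With 3 to 5 libraries a group and floors of 0.115 to 0.211 CPM, standard errors of 0.48 to 0.79 (log2) for *Fkbp5* and *Sgk1* limit what could be detected.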
